A study of Homo sapiens with 10 samples.

Results

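The genes of the autophagy machinery and the lysosome were examined in a human neuroblastoma cell line that carries either wild-type SOD1 or the SOD1(G93A) mutant. The list held 47 genes, chosen by function and named by symbol, with earlier results of these data known. Of these, 38 could be measured, among 14232 genes named in all. A gene was measured where the array has a probe set, the group of probes summarised into 1 value, that is annotated with that gene alone. Each of the 38 had 1 such probe set. SQSTM1, BECN1, WIPI1, ATG16L1, GABARAPL1, CTSD and CTSL lie on probe sets annotated with several genes, and ATG2A and ATG4B on none named here. These 9 genes were not analysed here. The absent genes include well known ones: SQSTM1 is the cargo receptor p62, BECN1 a core subunit of the lipid kinase that starts autophagosomes, and CTSD the lysosomal aspartic protease cathepsin D.

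RNA was taken from SH-SY5Y, a neuroblastoma line with noradrenergic properties, in 10 samples on Affymetrix exon arrays. The 5 wild-type SOD1 samples (2, 8, 11, 14 and 17) were from cells stably transfected with the normal enzyme. The 5 SOD1(G93A) samples (3, 9, 12, 15 and 18) were from cells stably transfected with a mutant found in familial amyotrophic lateral sclerosis (ALS), a disease of motor neurons. Transfected cells were kept in the antibiotic G418. Both groups carry a transfected SOD1, so the comparison is of mutant with normal protein, not with untransfected cells, which were not analysed here. The sources used here do not give whether the 5 samples of a group were separate cultures, or whether the lines were clones or pools. The p-values therefore cover only sample-to-sample spread, part or all of which may be technical, and the mutation and any other difference between the lines cannot be told apart.

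Autophagy encloses part of the cytoplasm in a double membrane, the autophagosome, and delivers it to the lysosome for digestion. The ULK1 kinase complex starts the process, and a class III PI3-kinase complex marks the membrane with a lipid. Lipid transfer proteins then enlarge the membrane, and a set of enzymes couples small ATG8 proteins to it. Cargo receptors bring the load, and lysosomal hydrolases break it down. Neurons use this route to clear aggregated protein, and several genes linked to ALS act in it. The transcription factors TFEB and TFE3 bind a short promoter motif, called the CLEAR element, that many lysosomal genes carry.

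The values are log2 intensities, and each difference is SOD1(G93A) minus wild-type SOD1, so that 1 unit is a doubling. Wild-type SOD1 samples read 9.88, 9.81, 9.66, 9.62 and 9.92 for SOD1 itself, and SOD1(G93A) samples 9.64, 9.59, 9.42, 9.60 and 9.51, in the order of sample number. The groups overlapped in 1 mutant sample, and the difference was -0.23 (SE 0.07) with a limma adjusted p of 0.107. The array does not separate the transfected from the endogenous transcript. The measured noradrenergic markers were all above the lower quartile of the probe sets. Their mean lay between 9.66 and 9.79 in the wild-type samples and between 9.52 and 9.71 in the mutant, and GAP43 (-0.48) and GATA3 (-0.38) of these 6 fell. The other 4 were not called, with ISL1 at 0.23, PHOX2A at 0.17, TH at 0.08 and STMN2 at -0.03, and the list's median was 0.03. Of 9 mesenchymal markers, of which PRRX1 was below the lower quartile, 4 rose (YAP1 by 0.66, CD44 by 0.47, FN1 by 0.46 and VIM by 0.37) and SNAI2 fell by 1.03, and their mean lay between 6.41 and 6.63 in the wild-type samples and between 6.58 and 6.72 in the mutant. The 7 macrophage markers had a mean between 3.68 and 3.82 in the wild-type and between 3.69 and 3.81 in the mutant samples, with PTPRC, CSF1R, AIF1 and LYZ below the lower quartile and no call. The part of cell state in the results was not tested, and in bulk RNA fewer cells of a type and less RNA per cell cannot be told apart.

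The share of the autophagy and lysosomal members that was called was near that of all named genes, and the called members moved by small amounts. Of the 38 members, 3 passed an adjusted p of 0.05, which is 7.89% against 9.60% of all 14232 named genes. Of the 11158 named genes with a mean above the lower quartile, where all members lay, 11.5% were called. ULK2 and ATG13, both of the initiation complex, rose to 118.5% and 119.4% of the wild-type level, where 4.03% of all named genes were called higher. ATG2B, a lipid transfer protein, fell to 77.3%, where 5.57% of all named genes were called lower. None of the 13 measured lysosomal members passed. In all, 9 members reached an unadjusted p of 0.05, which 21.7% of all named genes did. No member differed by more than 0.5 in either direction, as 4.26% of all named genes did, and none was called with a difference of 1 or more, as 1.18% were.

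The members' differences ran from -0.37 to 0.27, 22 of them above 0 and 16 below. Their median was 0.03 and the median of their absolute size was 0.11, beside -0.00 and 0.09 over all named genes. The 95% confidence interval of the difference lay within 0.5 of 0 on the log2 scale for 36 of the 38 members (94.7%), against 86.1% of all named genes. Such an interval holds the mutant level between 70.7% and 141% of the wild-type level. The exceptions were ATG2B and MAP1LC3B. The plot of members' differences shows this narrow band.

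**Figure D1:**
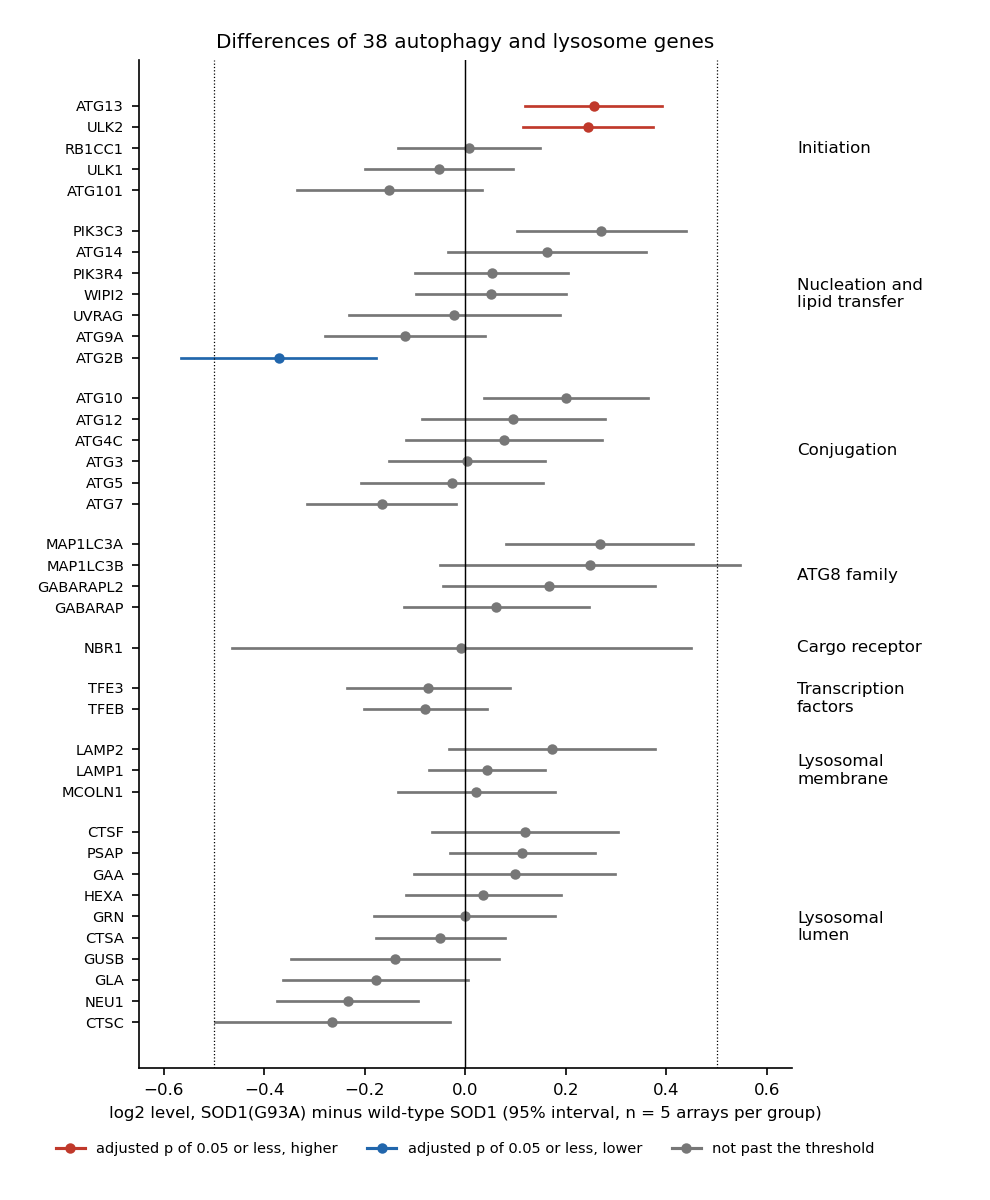
Difference in log2 intensity, SOD1(G93A) minus wild-type SOD1, for the 38 measured members, with points for the differences and bars for 95% confidence intervals from limma (5 arrays per group). ULK2 (0.24) and ATG13 (0.26) lie to the right of 0 and ATG2B (-0.37) to the left as the called members. The intervals of PIK3C3, MAP1LC3A, ATG10, ATG7, CTSC and NEU1 also lie on 1 side of 0 without a call, and those of the other members cross it.

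The ULK1 complex, which relays nutrient signals to the start of autophagy, had 2 of its 5 measured members called, both higher. Among all named genes 4.03% were called higher. ULK2, a kinase that can stand in for ULK1, read 7.51, 7.40, 7.52, 7.47 and 7.52 in wild-type samples 2, 8, 11, 14 and 17. It read 7.66, 7.75, 7.61, 7.76 and 7.85 in SOD1(G93A) samples 3, 9, 12, 15 and 18. Every mutant sample was above every wild-type sample, with the mutant sample 18 the highest. The means were 7.48 ± 0.05 and 7.73 ± 0.09 (SD, n = 5 each), a difference of 0.24 (SE 0.06, 95% interval 0.12 to 0.37) with a limma adjusted p of 0.0281. The 2-sided exact permutation p was 0.00794, the smallest that 5 against 5 arrays can give. The call was lost (adjusted p up to 0.0731) when 1 of wild-type arrays 2, 8, 11 and 14 or mutant arrays 9, 15 and 18 was left out.

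ATG13, the regulatory subunit that MTORC1 phosphorylates, read 8.20, 8.32, 8.42, 8.29 and 8.33 in the wild-type samples. In the SOD1(G93A) samples it read 8.52, 8.53, 8.49, 8.60 and 8.71. The groups did not overlap here either, and sample 18 was again the highest. The means were 8.31 ± 0.08 and 8.57 ± 0.09 (SD, n = 5 each), a difference of 0.26 (SE 0.06, 95% interval 0.12 to 0.39) with a limma adjusted p of 0.0289 and an exact permutation p of 0.00794. Leaving out 1 of wild-type arrays 2, 8, 14 and 17 or mutant arrays 9, 15 and 18 ended the call (adjusted p up to 0.0715).

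The other initiation members did not pass the test. ULK1, the kinase that gives the complex its name, had a difference of -0.05 (SE 0.07, adjusted p = 0.769 in limma). The scaffold RB1CC1 (FIP200) was at 0.01 (SE 0.06) and ATG101, which stabilises ATG13, at -0.15 (SE 0.08). In ATG101, 3 mutant samples lay below all wild-type samples, but sample 9 stood at 8.44 near the wild-type maximum of 8.46. The median of the 5 initiation members was 0.01, with 3 differences above 0 and 2 below.

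**Figure D2:**
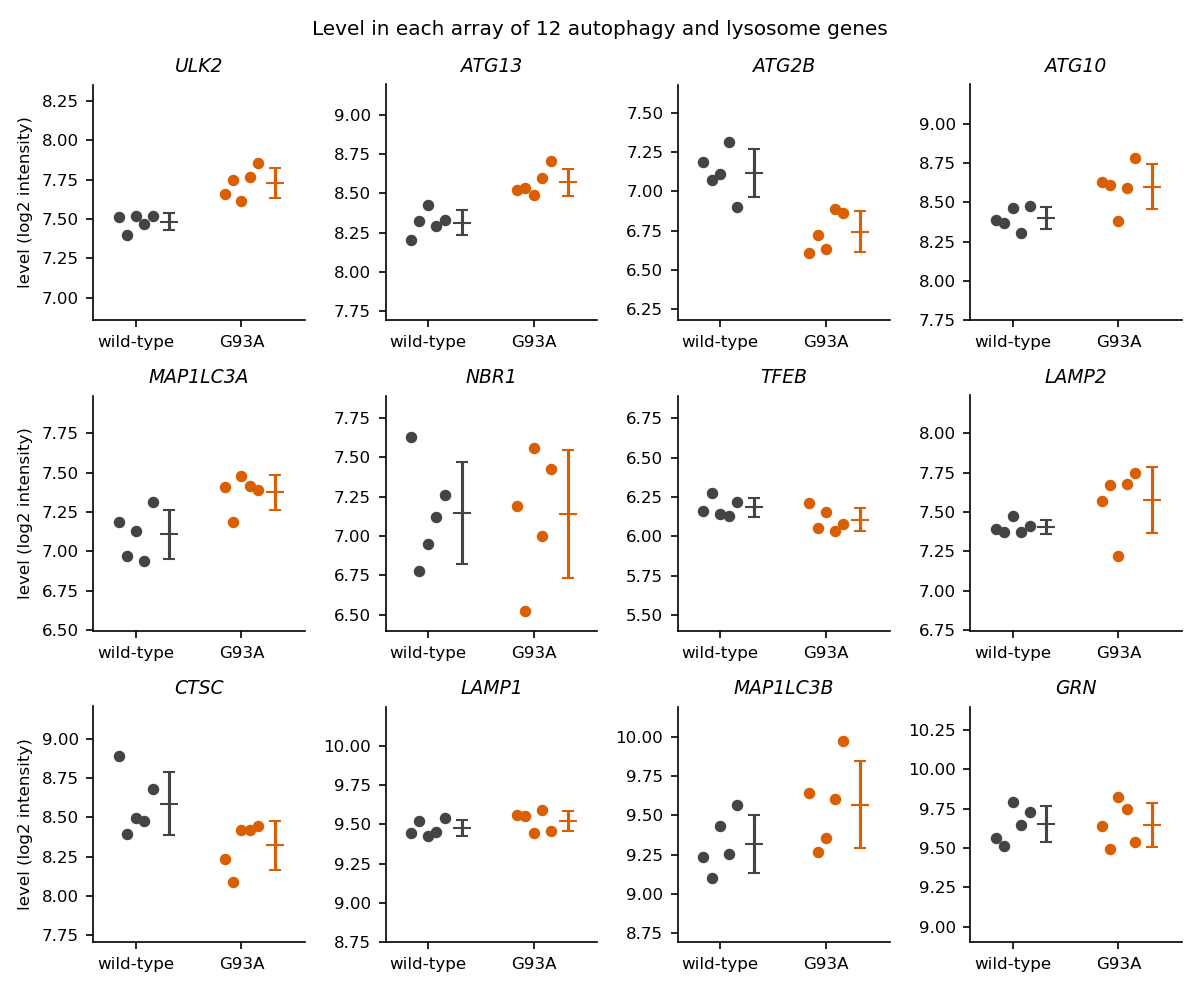
Log2 intensity of 12 members in each of the 10 arrays, by group, with a point for each array (in order of sample number) and bars for the mean ± SD (n = 5). ULK2 and ATG13 are higher and ATG2B is lower in every SOD1(G93A) array than in any wild-type array, and the groups overlap for LAMP1 and GRN.

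Among the 7 measured genes of nucleation and membrane growth, 1 was called (14.3%, beside 9.6% of all named genes). ATG2B, a bridge that carries lipids from the endoplasmic reticulum into the growing membrane, read 7.18, 7.07, 7.11, 7.31 and 6.90 in the wild-type samples. It read 6.61, 6.72, 6.63, 6.89 and 6.86 in the SOD1(G93A) samples. No values overlapped, but the lowest wild-type sample (17) and the highest mutant sample (15) nearly met. The means were 7.11 ± 0.15 and 6.74 ± 0.13 (SD, n = 5 each). The difference of -0.37 (SE 0.09, 95% interval -0.56 to -0.18) is the largest of any member and had a limma adjusted p of 0.0260 and an exact permutation p of 0.00794. The call ended (adjusted p up to 0.0662) when 1 of wild-type arrays 2, 11 and 14 or mutant arrays 3, 9 and 12 was left out. Its close relative ATG2A was not analysed here.

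PIK3C3, the catalytic subunit VPS34 that makes the marking lipid, had the highest difference in the group but missed the threshold. It is named, like NEU1 further on, after its values were seen. Wild-type samples read 7.80, 7.73, 7.82, 7.90 and 7.73, and SOD1(G93A) samples 7.98, 8.03, 7.89, 8.19 and 8.26. Mutant sample 12 lay just below the highest wild-type sample, and the other 4 mutant samples were above all of the wild-type. The difference was 0.27 (SE 0.08, 95% interval 0.10 to 0.44) with a limma adjusted p of 0.0607, and leaving out 1 array gave 0.0305 without mutant array 12 and no call in the other 9 omissions (up to 0.142).

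The partners of PIK3C3 were less apart. PIK3R4 (VPS15), its regulatory kinase, was at 0.05 (SE 0.07). ATG14, which directs the complex to autophagosomes, was at 0.16 (SE 0.09). UVRAG, which directs it to endosomes, was at -0.02 (SE 0.09). WIPI2, a reader of the lipid, was at 0.05 (SE 0.07), and ATG9A, the membrane protein that moves lipids between leaflets, was at -0.12 (SE 0.07). All 5 overlapped between the groups and had limma adjusted p-values from 0.383 to 0.947.

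The conjugation enzymes, which act like a ubiquitin pathway to attach ATG8 proteins to lipid, had no called gene among 6 measured, with 2 at an unadjusted p of 0.05. ATG10, the enzyme that passes ATG12 to ATG5, read 8.39, 8.37, 8.46, 8.30 and 8.47 in the wild-type samples and 8.63, 8.61, 8.38, 8.59 and 8.78 in the SOD1(G93A) samples. The mutant sample 12 fell within the wild-type range and the other 4 above it. The difference was 0.20 (SE 0.07, 95% interval 0.04 to 0.36), with a limma adjusted p of 0.162. It was 0.0389 without sample 12 and missed the threshold in the other 9 omissions of 1 array (up to 0.291).

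ATG7, the E1-like enzyme that activates both ATG12 and the ATG8 proteins, differed in the opposite direction. It was at -0.17 (SE 0.07, 95% interval -0.31 to -0.02, limma adjusted p = 0.203). In ATG7, 4 of the 5 mutant samples lay below all of the wild-type samples, and sample 18, at 7.26, lay inside the wild-type range of 7.15 to 7.38. ATG3 (0.00), ATG4C (0.08), ATG5 (-0.03) and ATG12 (0.10) had SEs from 0.07 to 0.09 and adjusted p-values from 0.625 to 0.990. The members of this group did not move together, with 4 differences above 0, 2 below and a median of 0.04.

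All 4 measured ATG8 proteins, which coat the autophagosome membrane and bind receptors, had differences above 0, and none passed the test. Their median was 0.21. MAP1LC3A, an LC3 protein abundant in brain, read 7.19, 6.97, 7.13, 6.94 and 7.31 in the wild-type and 7.41, 7.18, 7.48, 7.41 and 7.39 in the SOD1(G93A) samples. All mutant samples but number 9 were above the highest wild-type sample. The difference was 0.27 (SE 0.08, 95% interval 0.08 to 0.45, limma adjusted p = 0.0944), and leaving out wild-type sample 17 brought the adjusted p to 0.0462. The other 9 omissions gave no call (up to 0.197).

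MAP1LC3B, the LC3 form most used as an autophagosome marker, read 9.23, 9.10, 9.43, 9.25 and 9.57 in the wild-type and 9.64, 9.26, 9.35, 9.60 and 9.97 in the mutant samples. Mutant samples 9 and 12 lay among the wild-type values, and sample 18 stood above all others. The difference of 0.25 had a wide error (SE 0.14, 95% interval -0.05 to 0.55, limma adjusted p = 0.375). GABARAPL2 was at 0.17 (SE 0.10) and GABARAP, another ATG8 protein, at 0.06 (SE 0.08), with adjusted p-values of 0.407 and 0.789. Transcript levels of ATG8 proteins do not report how much protein is attached to membranes.

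NBR1, a receptor for ubiquitinated cargo, was the measured member with the widest error. It read 7.63, 6.78, 6.95, 7.12 and 7.26 in the wild-type and 7.19, 6.52, 7.56, 7.002 and 7.43 in the SOD1(G93A) samples. Each group covered about a log2 unit and they overlapped fully. The difference was -0.01 (SE 0.21, 95% interval -0.46 to 0.45), and the limma adjusted p was 0.992.

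The transcription factors that control the programme did not pass. TFEB, the leading regulator of lysosomal genes, read 6.16, 6.28, 6.14, 6.13 and 6.22 in the wild-type and 6.21, 6.05, 6.15, 6.03 and 6.08 in the SOD1(G93A) samples. In 3 mutant samples it was below all wild-type samples, and the other 2 lay within their range. The difference was -0.08 (SE 0.06, 95% interval -0.20 to 0.04, limma adjusted p = 0.515). TFE3 was at -0.07 (SE 0.07). Both proteins are regulated chiefly by phosphorylation and entry into the nucleus, which arrays do not measure.

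The CLEAR motif was searched in the members' promoters to set the target genes beside these levels. The search read RefSeq promoter windows of 250 bases before and 50 after each gene's start (GRCh38.p14) for TCACGTG or its reverse complement CACGTGA, on both strands. A window was found for 41 of the 47 listed genes. The motif was in 9 of the members' 48 windows (18.8%), against 3.71% of all 35116 windows in the table. By role it was in 7 of 12 lysosomal genes and in 2 of 29 autophagy genes.

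The 8 measured genes with the motif are shown because they are the members that carry the motif of TFEB and TFE3. Each line gives the gene's strand, 5′ to 3′, around the match nearest the start, with the match in capitals. Where the 8-base palindrome is present, all 8 of its bases are in capitals.
LAMP1, chr13:113297226-113297255, + strand: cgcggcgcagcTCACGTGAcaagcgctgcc
MCOLN1, chr19:7522598-7522627, + strand: gggctaccgggTCACGTGAccgaggcacag
GAA, chr17:80101538-80101567, + strand: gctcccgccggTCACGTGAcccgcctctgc
CTSA, chr20:45891298-45891327, + strand: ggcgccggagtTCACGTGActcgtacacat
CTSF, chr11:66568712-66568740, - strand: catataacaagCACGTGAtagaggtcagt
NEU1, chr6:31862931-31862959, - strand: atgctgcgtgaTCACGTGggaggagatga
ATG14, chr14:55411834-55411862, - strand: aaacaaaatccCACGTGActggctctcct
ATG3, chr3:112561940-112561969, - strand: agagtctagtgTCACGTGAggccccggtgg

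The match began 2 bases before the start in LAMP1, 15 in MCOLN1, 21 in ATG14, 26 in CTSA and 32 in GAA. It lay farther out in CTSF (123 bases) and NEU1 (127 bases), and 4 bases past the start in ATG3. The RNA of these 8 genes differed by -0.23 to 0.16, with a median of 0.03, and none was called. The 24 measured members with a window but no motif ran from -0.37 to 0.27 with a median of -0.00, and 3 were called. Among all named genes 9.6% were called, and the members with and without the motif were not tested against each other. A match describes letters in this window and does not show that a factor binds there.

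None of the 3 measured lysosomal membrane proteins was called. LAMP1, a heavily glycosylated protein that lines the inside of the membrane, read 9.44, 9.52, 9.43, 9.45 and 9.54 in the wild-type and 9.56, 9.55, 9.44, 9.59 and 9.46 in the SOD1(G93A) samples. The groups overlapped. The difference was 0.04 (SE 0.05, limma adjusted p = 0.751), and its 95% interval of -0.07 to 0.16 was among the narrowest of the members.

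LAMP2, needed for fusion of autophagosomes and for uptake of single proteins, showed 1 discordant array. It read 7.39, 7.37, 7.47, 7.37 and 7.41 in the wild-type and 7.57, 7.67, 7.22, 7.68 and 7.75 in the mutant samples. Sample 12 was below every wild-type sample, and the other 4 mutant samples were above every one. The difference was 0.17 (SE 0.09, 95% interval -0.03 to 0.38, limma adjusted p = 0.368), and without sample 12 the adjusted p was 0.0181. The other 9 omissions gave no call (up to 0.560). MCOLN1, the calcium channel TRPML1, was at 0.02 (SE 0.07, adjusted p = 0.924).

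The 10 measured lysosomal enzymes and lumenal proteins had a median difference of -0.03 and no call. CTSC, cathepsin C, which activates other proteases, had the largest difference. It read 8.89, 8.40, 8.50, 8.48 and 8.68 in the wild-type and 8.23, 8.09, 8.42, 8.42 and 8.44 in the SOD1(G93A) samples. Only mutant samples 3 and 9 were below the lowest wild-type sample. The difference was -0.26 (SE 0.11, 95% interval -0.50 to -0.03), with a limma adjusted p of 0.200.

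NEU1, the sialidase that trims glycoproteins and works in a complex with CTSA, was closest to the threshold. It read 8.13, 8.12, 8.36, 8.27 and 8.26 in the wild-type and 8.05, 7.93, 8.04, 7.91 and 8.05 in the SOD1(G93A) samples. Every mutant sample was below every wild-type sample. The difference was -0.23 (SE 0.06, 95% interval -0.37 to -0.09), with a limma adjusted p of 0.0506 and an exact permutation p of 0.00794. It was 1 of 4 members whose groups did not overlap, with ULK2, ATG13 and ATG2B (10.5% of members, against 11.4% of all named genes). Its partner CTSA was at -0.05 (SE 0.06).

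GRN, progranulin, whose loss causes frontotemporal dementia and a lysosomal storage disease, read 9.57, 9.51, 9.79, 9.65 and 9.73 in the wild-type and 9.64, 9.49, 9.83, 9.75 and 9.54 in the SOD1(G93A) samples. The groups overlapped completely. The difference was -0.00 (SE 0.08, 95% interval -0.18 to 0.18, limma adjusted p = 0.997). PSAP, the precursor of the saposins that help degrade sphingolipids, was at 0.11 (SE 0.07).

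Of the other glycosidases, 4 were measured and none was called. GAA, which digests glycogen, was at 0.10 (SE 0.09), HEXA, a subunit of the enzyme lost in Tay-Sachs disease, at 0.04 (SE 0.07), and GUSB, which digests glycosaminoglycans, at -0.14 (SE 0.09). GLA, the enzyme lost in Fabry disease, was at -0.18 (SE 0.08, limma adjusted p = 0.287), with 3 mutant samples below all wild-type samples. The cysteine protease CTSF was at 0.12 (SE 0.08).

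The 25 autophagy members had a median difference of 0.05 with 3 called, and the 13 lysosomal members had a median of 0.02 with none. That a call fell in one set and not in the other does not show that the sets differ, which was not tested. Taken per array, the median deviation of the autophagy members from their own means was -0.035, -0.118, -0.006, -0.037 and 0.033 in the wild-type samples. It was 0.044, -0.032, -0.039, 0.060 and 0.123 in the SOD1(G93A) samples, so the groups overlapped. For the lysosomal members it ran from -0.084 to 0.066 in the wild-type and from -0.083 to 0.091 in the mutant samples. The count of 3 called members was not stable when 1 array was left out. The differences then ran from 0.21 to 0.27 for ULK2, 0.22 to 0.28 for ATG13 and -0.43 to -0.32 for ATG2B. Array-wide, 1274 to 1562 probe sets were called in these omissions, beside 1643 with all arrays. With wild-type array 2 or 14 or mutant array 9 left out, the count of called members was 0. It was 1 when wild-type array 11 (ATG13) or mutant array 15 or 18 (ATG2B each) was omitted, and 5 when mutant array 12 was.

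The wider machinery around these genes was read from 9 further lists of 184 genes, of which 148 were measured. These lists too were chosen with earlier results of these data known. In them 18 genes were called (12.2%), 11 higher and 7 lower, beside the 9.60% of all named genes. Of the named genes with a mean above the lower quartile 11.5% were called, and only 7 of the 148 lay below that quartile. Between the groups 22 of the 148 (14.9%) did not overlap, beside 11.4% of all named genes. The median difference was 0.05. Of the 148, 2 (RRAGD and LAMP5) were called with a difference of 1 or more, as were 1.18% of all named genes and no member of the main list. In the plot of wider lists 7 of the 148 genes differed by more than 0.5, as 4.26% of all named genes did. Of these, 3 were nutrient-sensing genes (RRAGD, SESN3 and PRKAA2), and the others were LAMP5, ATP6V1E2, HGSNAT and RETREG1, each from another list.

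**Figure D3:**
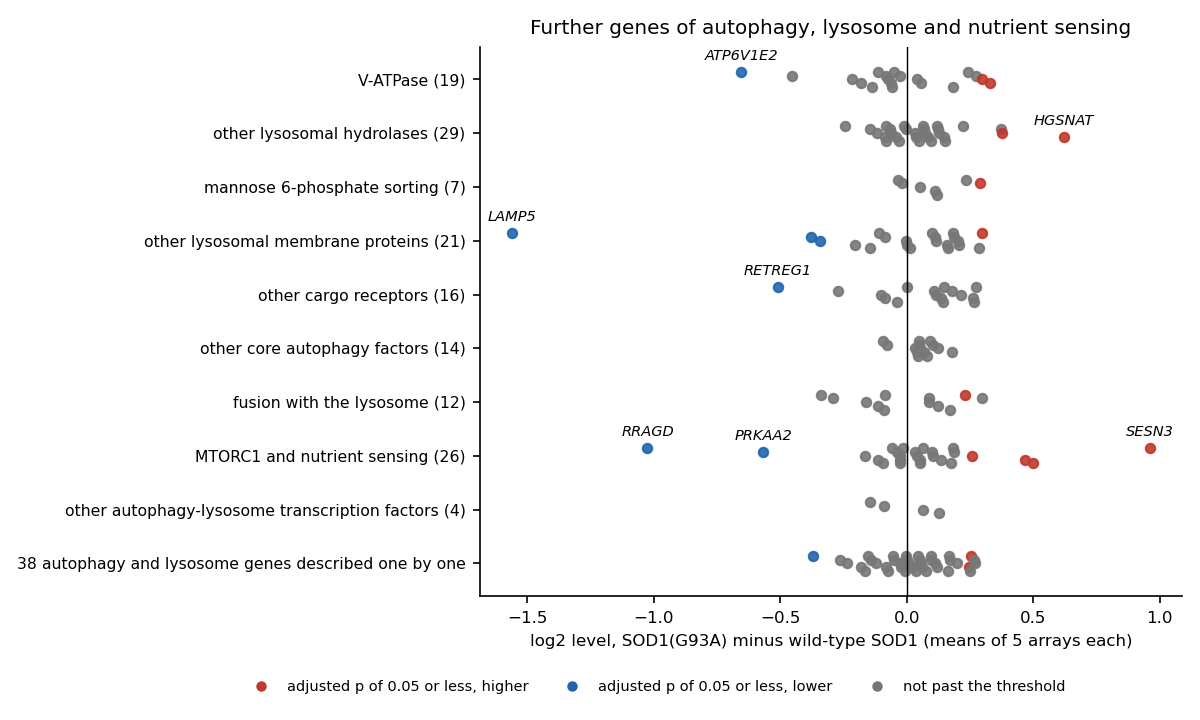
Difference in log2 intensity, SOD1(G93A) minus wild-type SOD1, for the measured genes of the 9 wider lists (their number in brackets) and, in the bottom row, the 38 members, with a point for each gene and called genes in red (higher) or blue (lower). LAMP5 (-1.56) and RRAGD (-1.02) lie farthest to the lower side and SESN3 (0.96) farthest to the higher side.

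Genes that carry nutrient signals to MTORC1, the kinase that holds ULK1 and TFEB in check, included 6 called of 26 (23.1%). Among all named genes 9.6% were called. Of the 6, 4 were higher and 2 lower. RRAGD, a Rag GTPase that places MTORC1 and TFEB on the lysosome, read 6.67, 6.72, 6.98, 6.85 and 6.84 in the wild-type and 5.90, 5.94, 5.54, 5.64 and 5.92 in the SOD1(G93A) samples. All mutant samples were more than 0.5 below the lowest wild-type sample. The difference was -1.02 (SE 0.09), 49.2% of the wild-type level, with a limma adjusted p of 5.29e-05. RRAGB, another Rag GTPase, was at 0.50 (SE 0.12, adjusted p = 0.0249). Mutant sample 12 (6.39) lay inside its wild-type range, and among the 10 omissions of 1 array the call held only for wild-type array 11 and mutant array 12 (adjusted p up to 0.0655).

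SESN3, a sestrin that restrains MTORC1, read 6.56, 6.50, 6.98, 6.99 and 6.63 in the wild-type and 7.21, 7.44, 7.84, 7.75 and 8.22 in the SOD1(G93A) samples. The groups did not overlap, though the mutant samples were spread over a full log2 unit. The difference was 0.96 (SE 0.18, limma adjusted p = 0.00736). PRKAA2, a catalytic subunit of the energy sensor AMPK, fell by 0.57 (SE 0.07, adjusted p = 0.000704). DEPTOR (0.47, SE 0.09) and AKT1S1 (0.26, SE 0.06), both inhibitory partners of MTOR, also rose with adjusted p-values of 0.00641 and 0.0288, and AKT1S1 lost its call when 1 of wild-type arrays 2, 8 and 14 or mutant arrays 3, 15 and 18 was left out.

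In the lysosomal membrane list 4 of 21 genes were called (19.0%, beside 9.6% of all named genes). LAMP5, a LAMP relative found in neurons, read 8.87, 8.66, 8.88, 8.83 and 9.01 in the wild-type and 7.46, 7.06, 7.25, 7.37 and 7.33 in the SOD1(G93A) samples. Each mutant sample was more than a log2 unit below every wild-type sample. The difference was -1.56 (SE 0.09), 33.9% of the wild-type level, with a limma adjusted p of 1.14e-06. LAPTM4A (-0.38, SE 0.05) and LAMP3 (-0.34, SE 0.07) fell, and the channel TPCN1 (0.30, SE 0.06) rose. The members LAMP1, LAMP2 and MCOLN1 were not called.

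In the list of further lysosomal hydrolases and related proteins 2 of 29 genes were called (6.9%, beside 9.6% of all named genes). HGSNAT, which acetylates heparan sulfate for breakdown, read 8.21, 8.35, 8.25, 8.21 and 8.40 in the wild-type and 8.86, 9.03, 8.79, 8.92 and 8.92 in the SOD1(G93A) samples. The groups stood well apart. The difference was 0.62 (SE 0.06, limma adjusted p = 0.000114). The protease CTSS was also called, at 0.38 (SE 0.05), but with both group means (2.87 and 3.24) below the lower quartile of the arrays. GNPTAB, which builds the sorting tag of lysosomal enzymes, rose by 0.29 (SE 0.06).

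**Figure D4:**
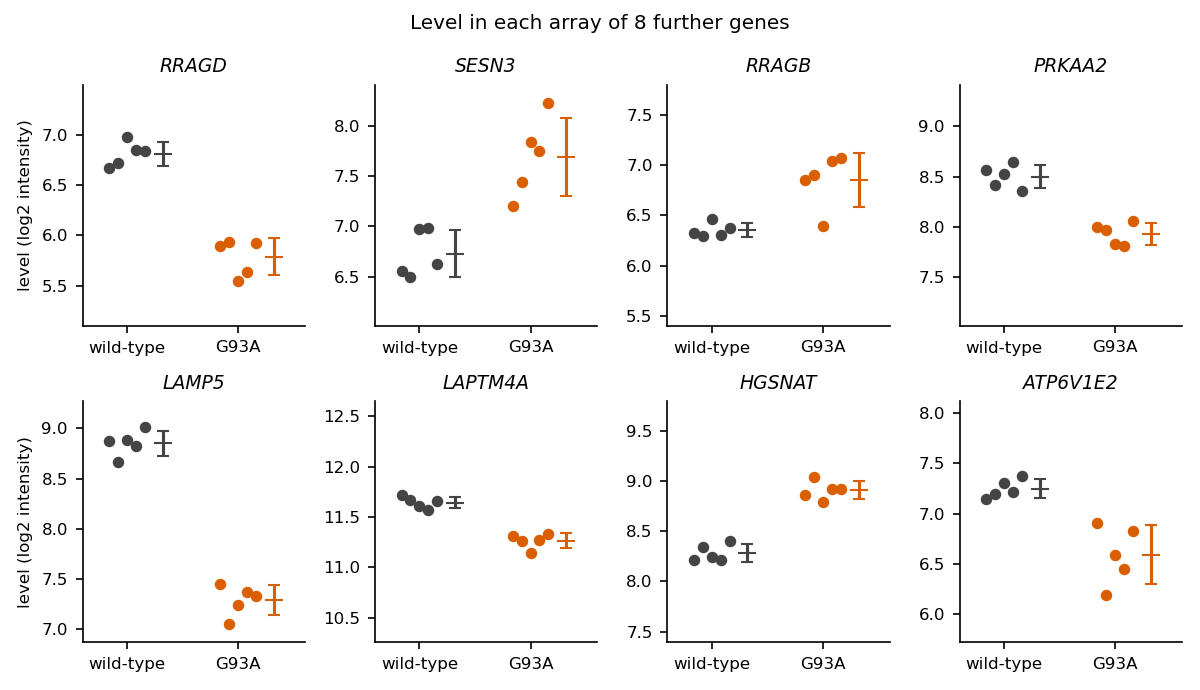
Log2 intensity of 8 called genes from the wider lists in each of the 10 arrays, by group, with a point for each array and bars for the mean ± SD (n = 5). LAMP5 and RRAGD are lower and HGSNAT and SESN3 higher in every SOD1(G93A) array than in any wild-type array.

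The proton pump of the lysosome, the V-ATPase, had 3 called of 19 (15.8%, beside 9.6% of all named genes). ATP6V1E2, an E subunit best known from testis, read 7.14, 7.20, 7.31, 7.21 and 7.38 in the wild-type and 6.91, 6.19, 6.59, 6.45 and 6.83 in the SOD1(G93A) samples, a difference of -0.65 (SE 0.13, limma adjusted p = 0.00840). ATP6AP2 (0.33, SE 0.07) and ATP6V1H (0.30, SE 0.07) rose, and the latter lost its call when wild-type array 2 or 11 or mutant array 9, 15 or 18 was left out. RETREG1, a receptor for autophagy of the endoplasmic reticulum, fell by 0.51 (SE 0.10). VPS39, a tethering subunit for fusion, rose by 0.23 (SE 0.06), with an adjusted p of 0.0291 in limma on all 10 arrays. Among the 10 omissions of 1 array, that call held in 3, those of wild-type arrays 8 and 11 and mutant array 12 (adjusted p up to 0.0764). The other core autophagy factors (14) and transcription factors (4) had no call, and their largest differences were ZFYVE1 (0.18, SE 0.07) and FOXO1 (-0.15, SE 0.07).

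The position of the called genes was set beside these values, since lower RNA over a run of neighbours was seen in these arrays. Among the 20 measured genes nearest to ULK2, ATG13 and ATG2B, the median differences were 0.01, 0.03 and -0.02, with 3, 1 and 2 called. Of all named genes 9.6% were called. Around the called wider genes other than ATP6V1E2 and LAPTM4A, the medians ran from -0.07 to 0.07, with 0 to 5 called. The counts of 5 were around LAMP5 (4 higher and 1 lower) and TPCN1 (all lower), and the 4 called around RETREG1 were all lower. Neighbours with differences below 0 numbered from 4 of 20 around SESN3 to 17 of 20 around RRAGD. Around ATP6V1E2 and LAPTM4A the medians were -0.33 and -0.37, with 11 and 8 called, all lower. Both lie in a stretch of the short arm of chromosome 2 from SH3YL1 to ACYP2, whose ends were set after the data were seen. In it 180 of 201 measured genes had differences below 0 and 101 were called lower. Of all 14232 named genes, 7308 had differences below 0 and 5.57% were called lower. The part of that stretch in the values of ATP6V1E2 and LAPTM4A was not tested.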

How the data were processed

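RNA of 10 SH-SY5Y samples, 5 per group as the sample labels give them, was measured on Affymetrix exon arrays. The authors deposited 1 log2 intensity per gene-level probe set, 22011 in all. RMA is named in the submitters' processing notes (it corrects background, quantile-normalizes and summarises probes) and oneChannelGUI 1.6.5 in the labels. A shift of all genes together would therefore not be visible, and differences of dim probes are compressed. No source used here gives the genome build. The array medians lay between 6.26 and 6.34, and the lower quartiles between 3.84 and 3.89. The number of arrays limits the precision.

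Of the probe sets, 14432 have 1 gene symbol in the platform annotation, 2408 several and 5171 none, and only the first were named. Where a gene had several such probe sets, the one with the highest mean was used. Groups were compared with lmFit and eBayes (limma 3.58.1, R 4.3.3, 2-sided) over all 22011 probe sets with Benjamini-Hochberg adjustment, and a call is an adjusted p of 0.05 or less. The script was tested on simulated data. SE is the moderated standard error. Single genes were also tested by an exact permutation of the 252 arrangements of the arrays.

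Members and lists were chosen with earlier results of these data known. Values in every sample are given for each called member, for the member with the largest absolute difference in each of 8 role groups, and for LAMP1, CTSD, SQSTM1, MAP1LC3B, BECN1, TFEB, GRN and SOD1 where measured. From each wider list up to 4 called genes are named, or else the one with the largest difference. Alternatives were eBayes with trend, an unmoderated model, array weights, median centring, repeated quantile normalization, a brightness filter, averaged probe sets, omitted replicates, blocks and other thresholds. Promoter windows are from RefSeq (GRCh38.p14), and its gene table held the genes of 14404 probe sets. The neighbouring genes and PIK3C3, NEU1, DEPTOR and AKT1S1 were looked at after the data were seen.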

Additional observations from a re-analysis of the deposited data

Results flagged for a closer look

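In 3 of 118 groups of 5 arrays examined, for the members and the named genes of the wider lists, 1 array stood apart from the other 4 by Dixon's test (critical value 0.71). Chance gives about 1 in 20 groups. All 3 were SOD1(G93A) arrays of members that were not called. ATG3, which couples ATG8 proteins to lipid, was lowest in sample 12 at 9.21, with the others between 9.42 and 9.50, a gap of 0.726 of the range. ATG7, the activating enzyme of the same pathway, was highest in sample 18 at 7.26, with the others between 7.01 and 7.07 (0.765 of the range). GABARAP, an ATG8 protein, was lowest in sample 9 at 10.64, with the others between 10.88 and 10.94 (0.815 of the range).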

How the results depend on the processing

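The count of 3 called members was 5 with array weights, with median centring, with quantile normalization repeated, with probe sets brighter than the median alone and with probe sets of a gene averaged. Those 5 were 13.2% of the members (13.9% of the 36 brighter ones). Beside them, 9.81%, 9.86%, 10.3%, 13.9% and 12.0% of all named genes tested were called, in that order. Under these settings the 3 genes kept their calls, with NEU1 and PIK3C3 added. The count was 4 with an intensity trend or without moderation (10.5%, beside 9.71% and 8.91% of all named genes). It was 6 at an adjusted p of 0.1, where 12.8% of all named genes were called. With an absolute log2 difference of at least 1 it was 0, beside 1.18% of all named genes. It was 1 with wild-type sample 17 and SOD1(G93A) sample 18 left out together, and 0 to 5 with 1 array left out. Over all settings the adjusted p ran from 0.00945 to 0.0940 for ULK2, from 0.00853 to 0.0987 for ATG13 and from 0.0105 to 0.0676 for ATG2B, each with the same direction. The 18 wider genes were 2 with the log2 difference of at least 1 and 14 to 21 with 1 array left out, and the 1643 probe sets called on the arrays were 192 and 1274 to 1562. The count of 36 members with an interval within 0.5 of 0 was 34 to 35 with 1 array left out.

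The labels give the groups no shared sample numbers. Taken as blocks, consecutive numbers (2 and 3, 8 and 9, and so on) left 0 members, 11 wider genes and 6.94% of all named genes called. Deviations of such pairs correlated at -0.03 to 0.14. For wild-type samples 8 and 11 the consecutive mutant sample correlated best, and for 2, 14 and 17 another did. So few weak correlations cannot decide whether the samples were paired, and the labels do not say. GRN was near 0 and changed sign with array weights (0.011), quantile normalization repeated (0.018) and both samples 17 and 18 left out (0.046). With 1 array left out it ran from -0.046 to 0.038, and NBR1 from -0.11 to 0.15. The cause was not tested. Array intensity gives no protein level and no autophagic flux.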
